A study of Mus musculus with 8 samples.

Results

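The caudate putamen, the dorsal striatum of the mouse, was compared with the anterior hippocampus in the 4 libraries made from mice aged 3 months, 2 libraries per region. Every barcode with at least 500 detected genes was used and its counts were added up per library, so membership was set by the labels and by a depth limit and not by expression. This gave 59709 barcodes of the 108519 that met the same limit in all 8 libraries of the series: 11030 and 20168 in hippocampal replicates 1 and 2, and 12352 and 16159 in caudate putamen replicates 1 and 2. The mice were of the strain C57BL/6JN, with no genetic change or treatment given in the labels. Tissue was punched from the left hemisphere, and nuclei were freed with EZ lysis buffer, stained with Hoechst, sorted and run on 10x Genomics v3.1. Every library is a mix of nuclei, equal in number, of 1 female and 1 male mouse, so the sexes cannot be compared and a replicate is a pool of 2 mice. The labels do not say whether both regions came from the same mice, nor whether replicates were prepared apart, so p-values measure the spread between these libraries, which may be partly technical. The 4 libraries of the same regions at 21 months (48810 barcodes) entered 1 comparison at the end.

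The main neurons of the caudate putamen are medium spiny neurons, inhibitory cells that receive dopamine and fall into a D1 kind, which makes substance P and dynorphin, and a D2 kind, which makes enkephalin. The main neurons of the hippocampus are glutamatergic: granule neurons of the dentate gyrus and pyramidal neurons of fields CA1 and CA3. The former arise from the subpallium and the latter from the pallium of the embryonic forebrain, territories that use different sets of transcription factors. Library sums of nuclei behave like bulk tissue, so a gene can be lower in a region because fewer cells of a type are present or because each holds less RNA, and these cannot be told apart here.

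The kept barcodes held 113901523 to 234752035 counts per library, with medians of 7963 to 11999 counts per barcode and 0.00302% to 0.00526% of counts from mitochondrial genes. Levels below are CPM, a gene's counts in every 1000000 kept counts of the library, given for replicate 1 and then replicate 2 of a region. Summed markers of medium spiny, dentate granule and CA3 neurons were higher in the region where these are main neurons. The 14 medium spiny neuron markers summed to 2143 and 2089 CPM in the hippocampus and to 12768 and 13582 CPM in the caudate putamen, and the 12 dentate granule markers to 2829.9 and 3592 CPM against 639 and 506 CPM. CA1 markers went the other way, at 258 and 209 CPM in the hippocampus against 374 and 332 CPM. The sums of mossy cell and Cajal-Retzius markers were also higher in the caudate putamen. Caudate putamen replicate 1 stood apart in ventricle-lining genes: Ttr, the transthyretin gene of the choroid plexus, was at 105 CPM there, at 0.0374 CPM in replicate 2 and at 0.0615 and 0.111 CPM in the hippocampus. Caudate putamen replicate 2 was counted with Cell Ranger 7.0.0 and the other libraries with 6.1.2, per the file headers. Pairs of young libraries shared 39 to 88 barcode sequences, at most 0.58% of the smaller library.

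The regions differed in a large part of the transcriptome. Of 22623 genes tested, 8570 (37.9%) were called at an adjusted p under 0.05 (edgeR quasi-likelihood test, Benjamini-Hochberg adjustment), 4186 (18.5%) higher and 4384 (19.4%) lower in the caudate putamen. At least 2-fold differences were called for 2171 genes (9.6%) in the higher and 2684 genes (11.9%) in the lower direction, and at least 8-fold differences for 491 and 573. The log2 fold change of caudate putamen over hippocampus had an SD of 1.39 across genes, against 0.39 between the hippocampal replicates and 0.51 between the caudate putamen replicates. The replicate values are differences of log2 CPM between single libraries, a measure that damps low counts more than the fitted fold change. Both libraries of one region lay above both of the other for 8566 of the 8570 called genes, and for 74.2% of all genes tested. The median log2 fold change over all genes tested was -0.01. Without the composition factor (TMM), so that libraries were scaled by total counts alone, the median moved to -0.15 and 3291 of 8806 calls (37.4%) were higher in the caudate putamen, in place of 48.8%. Without hippocampal replicate 1 there were 5330 calls and without hippocampal replicate 2 there were 5422.

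**Figure D1:**
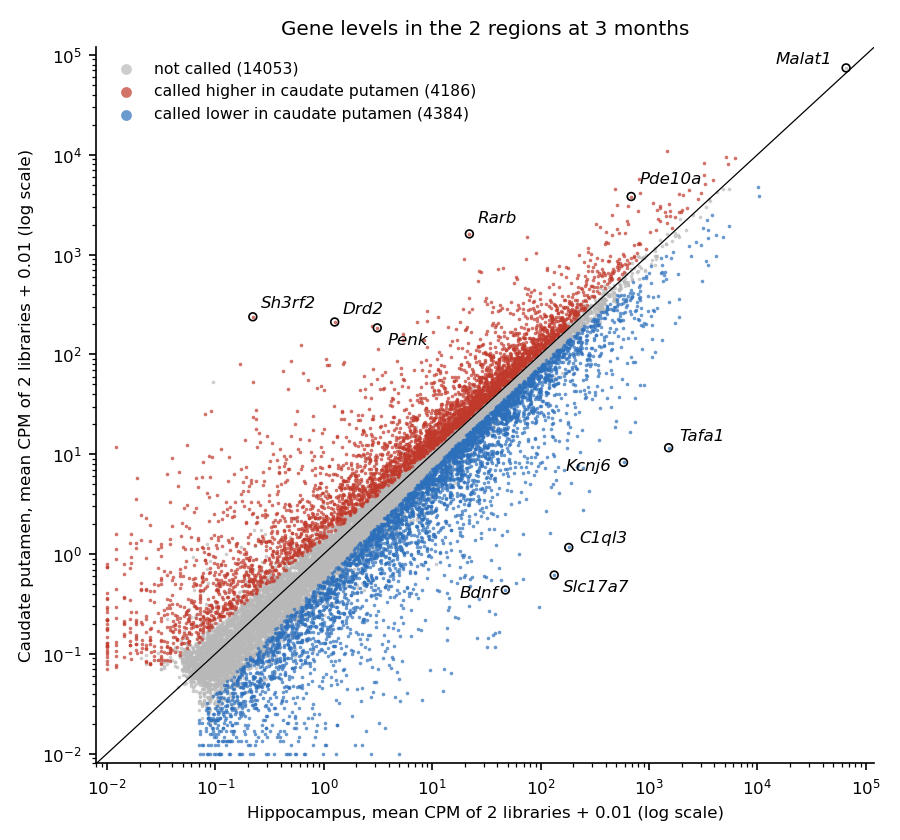
Each point is 1 of the 22623 genes tested, placed by its mean CPM over the 2 hippocampal libraries (x axis) and the 2 caudate putamen libraries (y axis), both plus 0.01 on log scales, and the line marks equal levels. Red points were called higher and blue points lower in the caudate putamen, grey points were not called, and circled genes are named: Sh3rf2, Rarb and Drd2 lie far above the line, Slc17a7, C1ql3 and Kcnj6 far below it.

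Among genes that reached a mean of 50 CPM in a region, the 12 with the largest fold higher in the caudate putamen included Sh3rf2, Mhrt, Gm13974, Rxrg, Adora2a, Drd2, Tac1, Gm28494, Syndig1l, Gm50024 and Rarb. Sh3rf2, which encodes a protein with SH3 domains and a RING finger, was at 0.211 and 0.213 CPM in the hippocampus and at 217 and 259 CPM in the caudate putamen, a log2 fold change of 10.27 (SE 0.20). Syndig1l, a striatum-enriched membrane protein gene, was at 0.676 and 0.741 CPM against 49.2 and 61.8 CPM (log2 6.42, SE 0.20). For both genes the regions were separated by far more than the spread within either, but the 12 were chosen among called genes with no overlap between regions. Among the 12, 3 were long intergenic RNAs of unknown role, and Gm13974 (chromosome 2, 114854093 to 115043972, plus strand) and Gm28494 (114897916 to 115220708, minus strand; GENCODE vM21, GRCm38) overlap each other on opposite strands. Mhrt overlaps Myh7, a cardiac myosin gene on the opposite strand, which was itself at 0.351 and 0.366 CPM against 8.70 and 8.64 CPM. The sources used here do not say whether counting used the strand, so reads of such overlapping genes may not be told apart.

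The 12 genes with the largest fold lower in the caudate putamen were Smoc2, Slc17a7, C1ql3, Tafa1, Nrn1, Arsj, Itga8, Gpc4, Kcnj6, Slit1, Gm41505 and Tspan18. Slc17a7 (chromosome 7, 45163949 to 45176142), which encodes the vesicular glutamate transporter VGLUT1, was at 118 and 149 CPM in the hippocampus and at 0.141 and 1.07 CPM in the caudate putamen (log2 -7.53, SE 0.79). Its caudate putamen libraries differed more from each other than those of the other 23 genes with the largest folds, yet both lay far below the hippocampus. Tafa1, which encodes a secreted chemokine-like protein, was at 1542 and 1497 CPM against 12.5 and 10.7 CPM (log2 -6.89, SE 0.11). Smoc2, a matricellular protein gene, was at 83.3 and 110.3 CPM against 0.162 and 0.402 CPM (log2 -8.19, SE 0.42). Several of the other genes encode surface or secreted proteins: Nrn1 (neuritin), Itga8 (an integrin subunit), Gpc4 (a glypican), Slit1 (an axon guidance ligand) and Tspan18 (a tetraspanin) had log2 fold changes between -6.84 and -5.30. Gm41505 overlaps the end of Kcnj6 on the opposite strand, and both were lower. The genes of both sets were chosen from these same libraries as called, with no overlap between regions, a choice that favours calls that last. All 24 genes of these sets kept their call in each of the alternatives run, including leaving out any 1 library.

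**Figure D2:**
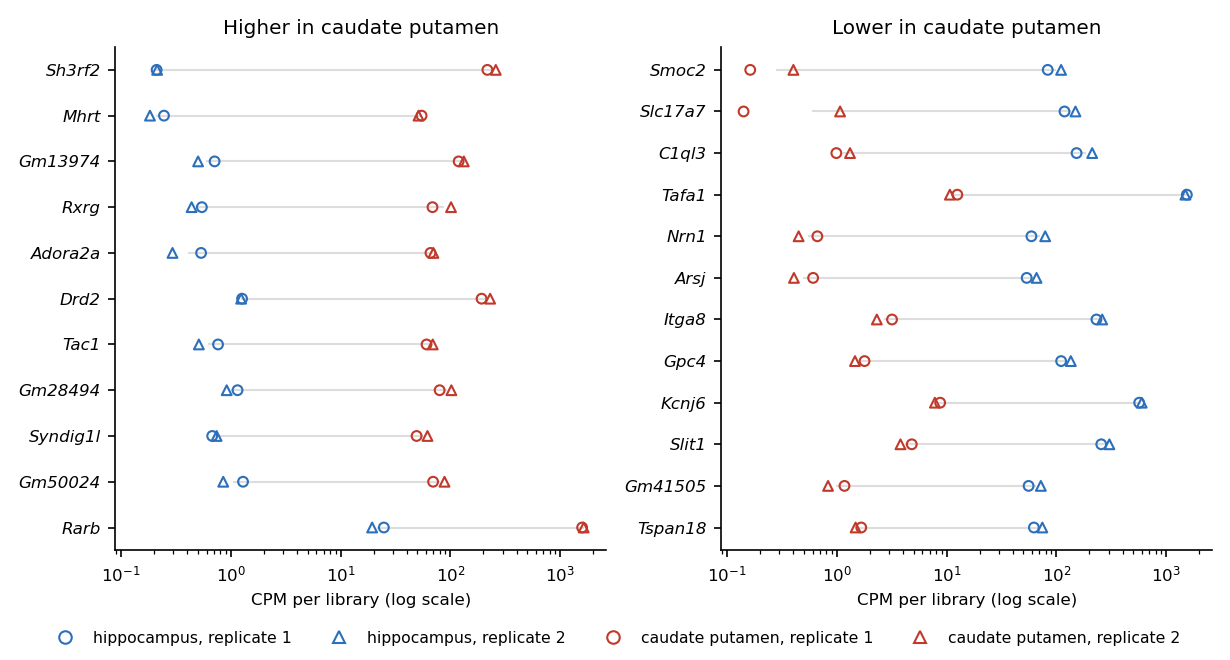
Level in CPM (log x axis) of the genes named among the 12 with the largest fold in each direction, 1 symbol per library: blue for hippocampus, red for caudate putamen, circles for replicate 1 and triangles for replicate 2, with a grey line between region means. Genes were chosen among those whose library values did not overlap between regions. In every row the 2 symbols of a region sit close together relative to the gap between regions, with Slc17a7 in the caudate putamen, at 0.141 and 1.07 CPM, the widest pair.

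Promoter sequences are shown for genes on both sides of the difference because the searched motifs can be seen in them. They come from the RefSeq table for GRCm38.p6, run 5′ to 3′ on the gene's strand over the 250 bases before the start, and capitals mark the matches. Rarb carries a direct repeat of a pair of 6-base elements with 5 bases between, beginning 53 bases before the start; repeats of this form are the kind of element that pairs of retinoic acid and retinoid X receptors bind. Gpr6 and Sst, both higher in the caudate putamen, carry the palindromic cAMP response element TGACGTCA, beginning 78 and 48 bases before the start. Slc17a7 carries 3 GC boxes (GGGCGG, here read on either strand), the nearest beginning 13 bases before the start.
Rarb, chr14:16575477-16575726, minus strand: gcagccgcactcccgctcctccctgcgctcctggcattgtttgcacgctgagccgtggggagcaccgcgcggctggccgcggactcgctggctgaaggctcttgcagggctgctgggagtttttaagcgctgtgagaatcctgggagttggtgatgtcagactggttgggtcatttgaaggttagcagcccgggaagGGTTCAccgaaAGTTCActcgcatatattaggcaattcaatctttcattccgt
Gpr6, chr10:41072291-41072540, minus strand: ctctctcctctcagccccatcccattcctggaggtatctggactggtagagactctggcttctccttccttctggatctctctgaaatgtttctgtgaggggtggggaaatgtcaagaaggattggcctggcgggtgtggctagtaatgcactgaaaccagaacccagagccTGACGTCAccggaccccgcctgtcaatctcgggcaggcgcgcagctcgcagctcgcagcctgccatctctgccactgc
Sst, chr16:23890845-23891094, minus strand: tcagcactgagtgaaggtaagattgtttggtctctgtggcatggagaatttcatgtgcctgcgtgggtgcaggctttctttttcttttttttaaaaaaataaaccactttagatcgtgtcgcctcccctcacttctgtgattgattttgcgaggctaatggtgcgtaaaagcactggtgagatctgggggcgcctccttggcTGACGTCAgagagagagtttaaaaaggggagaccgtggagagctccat
Slc17a7, chr7:45163671-45163920, plus strand: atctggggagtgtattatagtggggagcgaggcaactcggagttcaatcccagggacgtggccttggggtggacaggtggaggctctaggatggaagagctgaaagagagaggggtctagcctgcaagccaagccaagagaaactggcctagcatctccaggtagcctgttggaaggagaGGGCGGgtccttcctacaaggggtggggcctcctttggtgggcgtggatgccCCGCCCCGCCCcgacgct

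The share of promoters with each motif was counted over all tested genes and over the genes that differed. Of 15485 tested genes with a promoter in the table, read from 250 bases before to 50 after the start on both strands, 2.93% held TGACGTCA, against 1.84% of 1358 genes called at least 2-fold higher and 1.53% of 1762 genes called at least 2-fold lower in the caudate putamen. Its shorter form TGACG, which the full element contains, was in 29.95% of all, 23.3% of the higher and 21.7% of the lower genes. The GC box GGGCGG was in 56.3%, 46.2% and 48.8%, and the TATA box TATAAA in 10.9%, 15.9% and 12.6%. The E-boxes CAGATG and CAGCTG, which basic helix-loop-helix factors bind, were in 16.1% and 19.0% of all, 18.0% and 22.6% of the higher, and 19.6% and 21.9% of the lower genes. In both sets the share with a GC box was below, and the share with a TATA box above, that of all tested promoters, which is given without a test. The direct repeat, searched under its usual name of a DR5 retinoic acid response element (a pair of 6-base elements in the same direction with 5 bases between) and added after the data were seen, was in 11 of the 15485 promoters (0.071%). It was in 2 of the 1358 genes called at least 2-fold higher (0.147%), Rarb among them, and in 0 of the 1762 called at least 2-fold lower. The RefSeq start of Rarb lies inside the GENCODE gene, which spans 16430839 to 16819156 on chromosome 14, and beside Gm48162, an antisense gene from 16575601 to 16580459 that was at 0.0088 and 0.0511 CPM in the hippocampus and at 8.45 and 9.81 CPM in the caudate putamen.

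Transcription factors of the pallial list and of the subpallial list went mostly in opposite directions. All 20 factors on the list of pallial and glutamatergic neurons were called lower in the caudate putamen, with a median log2 fold change of -3.33 beside -0.01 over all genes, where 19.4% of genes were called lower. Neurod2, a basic helix-loop-helix factor of glutamatergic neurons, was at 32.2 and 43.6 CPM in the hippocampus and at 0.0777 and 0.224 CPM in the caudate putamen (log2 -7.72, SE 0.44). Bhlhe22 was at 11 and 14.9 CPM against 0.0495 and 0.0701 CPM (log2 -7.56, SE 0.30). Prox1, the homeobox factor that sets granule neuron identity, was at 155 and 208 CPM against 18.8 and 14 CPM (log2 -3.33, SE 0.20). Zbtb20 was at 3208 and 3532 CPM against 861 and 863 CPM (log2 -1.83, SE 0.10), and Tcf4 at 1856 and 1896 CPM against 257 and 212 CPM (log2 -2.86, SE 0.11). Mef2c (log2 -0.46, SE 0.12) and Etv1 (log2 -0.41, SE 0.10) had the smallest differences, and their calls were lost without hippocampal replicate 1, hippocampal replicate 2 or caudate putamen replicate 2. The count of 20 fell to 16 without either hippocampal library and to 17 without caudate putamen replicate 2.

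Of 19 subpallial and GABAergic factors tested, 15 were called higher and 1 lower in the caudate putamen (median log2 2.46, and 18.5% of all genes called higher). Six3, a homeobox factor of D2 medium spiny neurons, was at 0 and 0.141 CPM in the hippocampus and at 25.1 and 25 CPM in the caudate putamen. Isl1, a LIM homeobox factor of D1 and cholinergic neurons, was at 0 and 0.0043 CPM against 12.2 and 11.2 CPM; with so few hippocampal counts no fold is given. Foxp2 was at 32.1 and 21.3 CPM against 536 and 562 CPM (log2 4.51, SE 0.23) and Meis2 at 90.5 and 58.3 CPM against 1504 and 1492 CPM (log2 4.48, SE 0.24). Both are known from medium spiny neurons. Bcl11b (CTIP2), a factor needed for medium spiny neurons to mature and also present in hippocampal neurons, was at 229 and 251 CPM against 443 and 456 CPM (log2 1.05, SE 0.09). Within the Dlx family, Dlx5 (log2 3.67, SE 0.19) and Dlx6 (log2 4.43, SE 0.14) were called higher, while Dlx1 had a log2 fold change of -0.49 (SE 0.23) and was not called. The Dlx2 call was lost without either hippocampal library or caudate putamen replicate 1, and that of Ikzf1 without hippocampal replicate 2.

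The dopamine and cAMP signalling genes were mostly higher, with 26 of 38 tested called higher and 8 lower in the caudate putamen (median log2 1.33), against 18.5% and 19.4% of all genes; these shares are the background for each count of list members below. Among receptors, Drd1 was at 0.825 and 1.04 CPM in the hippocampus and at 49.1 and 47.9 CPM in the caudate putamen (log2 5.82, SE 0.15). Drd2 (chromosome 9, 49340627 to 49408177) was at 1.26 and 1.24 CPM against 192 and 229.9 CPM (log2 7.54, SE 0.17). Drd3 was also called higher, at 0.588 and 0.375 CPM against 11.8 and 7.31 CPM (log2 4.48, SE 0.34). Drd5, the D1-class receptor known from the hippocampus, went the other way, at 1.31 and 1.85 CPM against 0.0424 and 0.0607 CPM (log2 -4.75, SE 0.36). The G protein subunits that couple these receptors to cAMP showed the same opposition within a family. Gnal, the olfactory and striatal stimulatory alpha subunit, was at 140.1 and 158 CPM against 746 and 795 CPM (log2 2.51, SE 0.11), and Gng7, its striatal gamma partner, had the same log2 fold change of 2.51 (SE 0.08). Gnas, the general stimulatory alpha subunit, was at 118 and 114 CPM against 45.7 and 37 CPM (log2 -1.35, SE 0.10).

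Adenylyl cyclases, which make cAMP, also divided. Adcy5 was at 28.1 and 26 CPM in the hippocampus and at 687 and 697 CPM in the caudate putamen (log2 4.82, SE 0.10). The calcium-stimulated Adcy1 and Adcy8 were lower, at log2 -2.90 (SE 0.13) and -2.67 (SE 0.28), as was Adcy2 at log2 -3.17 (SE 0.22). Among phosphodiesterases, which break cyclic nucleotides down, Pde10a was at 736 and 635 CPM against 3658 and 3972 CPM (log2 2.62, SE 0.13). Pde1c, Pde1b, Pde7b, Pde2a, Pde4b and Pde8b were also called higher, with log2 fold changes from 0.67 to 4.22. Pde4d (log2 -1.74, SE 0.14) and Pde1a (log2 -2.09, SE 0.42) were called lower, the latter call being lost without either hippocampal library. Pde4a was not called, at log2 -0.07 (SE 0.07). Downstream, Ppp1r1b, which encodes the protein phosphatase inhibitor DARPP-32, was at 1.76 and 1.24 CPM against 79.3 and 81.3 CPM (log2 5.91, SE 0.20). Rgs9, a brake on D2 receptor signalling, was at 19 and 20 CPM against 864 and 923 CPM (log2 5.66, SE 0.12). Among subunits of protein kinase A, Prkaca had a log2 fold change of -0.16 (SE 0.08) and Prkar1a of 0.13 (SE 0.10), neither called, whereas Prkacb was called higher at 0.90 (SE 0.10) and Prkar2b at 1.99 (SE 0.10). The Gnb1 call (log2 0.27) was lost without hippocampal replicate 1, hippocampal replicate 2 or caudate putamen replicate 2 and with total counts only, and that of Arpp21 without hippocampal replicate 2.

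Markers of the medium spiny neuron kinds were all or nearly all higher in the caudate putamen: 14 of 14 shared markers (median log2 4.13), 6 of 6 D2 markers (median log2 6.78) and 6 of 7 D1 markers (median log2 2.61). Among D1 markers, Tac1, the substance P precursor, was at 0.764 and 0.511 CPM against 60.6 and 69 CPM (log2 6.86, SE 0.23). Eya1 was the exception, at 67.1 and 50.5 CPM in the hippocampus and 17.1 and 16.5 CPM in the caudate putamen (log2 -1.66, SE 0.15). Among D2 markers, Adora2a, a receptor for adenosine, was at 0.536 and 0.294 CPM against 65.8 and 69.9 CPM (log2 7.58, SE 0.28), and Gpr6, an orphan receptor, at 0.0439 and 0.0469 CPM against 12.8 and 12 CPM (log2 8.19, SE 0.18). Of the markers of eccentric medium spiny neurons, a smaller kind, Otof, Casz1 and Tshz1 were called higher and Pcdh8 lower. The Ano3 call among the shared markers was lost without hippocampal replicate 1, and that of Sfxn1 among the D1 markers (log2 0.46, SE 0.09) without either hippocampal library or caudate putamen replicate 2.

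Retinoic acid signalling genes went in both directions, with 7 of 17 called higher and 6 lower (median log2 0.56), or 3 higher and 4 lower with thinning to 1000 counts per barcode. The nuclear receptors Rarb and Rxrg were among the largest differences: Rarb was at 24.7 and 19.3 CPM in the hippocampus and at 1584 and 1637 CPM in the caudate putamen (log2 6.34, SE 0.17), and its promoter repeat is shown above. Rxrg was at 0.544 and 0.439 CPM against 68.7 and 101 CPM (log2 7.61, SE 0.31). Rarg was also called higher (log2 0.93, SE 0.19), Rara lower (log2 -1.21, SE 0.20), and Rxra was not called (log2 0.24, SE 0.20). Of the binding proteins, Rbp4, a retinol carrier, was at 1.04 and 1.15 CPM against 7.19 and 8 CPM (log2 2.93, SE 0.17). On the other side, Stra6, a retinol transporter, was at 25.8 and 34 CPM against 0.7 and 0.476 CPM (log2 -5.55, SE 0.25), and Aldh1a2, a retinaldehyde dehydrogenase, at 5.7 and 2.16 CPM against 0.184 and 0.0654 CPM (log2 -4.90, SE 0.70). Cyp26b1, which breaks retinoic acid down, was lower as well (log2 -2.36, SE 0.28). Aldh1a3, another retinaldehyde dehydrogenase, and Dhrs3, a retinaldehyde reductase, were not called, at log2 0.75 (SE 0.23) and 1.00 (SE 0.34). Aldh1a2 is also known from meningeal cells, and of 5 fibroblast-like meningeal markers Slc6a13 and Dcn were likewise called lower in the caudate putamen, Lum higher, and the list summed to 15 and 8.03 CPM in the hippocampus against 11.6 and 11.5 CPM; the part of such cells in the Aldh1a2 difference was not tested. The calls of both lower meningeal markers were lost without hippocampal replicate 1. The Aldh1a1 call was lost without either hippocampal library, that of Rara without hippocampal replicate 1, that of Rdh10 without hippocampal replicate 2 or either caudate putamen library, and that of Rxrb without hippocampal replicate 1, without either caudate putamen library and with total counts only.

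Of 6 GABA synthesis and transport genes, 5 were called higher in the caudate putamen (median log2 2.13). Gad2, a glutamic acid decarboxylase, was at 17.6 and 22.5 CPM in the hippocampus and at 182 and 166 CPM in the caudate putamen (log2 3.25, SE 0.15). Slc32a1, the vesicular GABA transporter, was at 1.85 and 2.26 CPM against 24.9 and 24 CPM (log2 3.70, SE 0.14). The lower member, Slc6a11, is the GABA transporter known from astrocytes, and its call was lost without either hippocampal library. Of 8 genes of glutamate transport and vesicular loading, 6 were called lower (median log2 -1.12), the vesicular transporter Slc17a7 most of all, while Slc17a8 (VGLUT3), known from cholinergic interneurons, was called higher at 0.904 and 0.805 CPM against 2.35 and 2.21 CPM (log2 1.56, SE 0.18). Among the 6 were also Slc1a2, Slc1a3 (log2 -1.44, SE 0.23) and Glul (log2 -0.84, SE 0.22), known from astrocytes, whose markers were lower as well, 7 of 10 called (median log2 -1.44); their part in this count was not tested. The count of 6 fell to 3 without hippocampal replicate 2. Slc17a6 (VGLUT2) was at 11.6 and 9.98 CPM in the hippocampus but at 1.54 and 0.0187 CPM in caudate putamen replicates 1 and 2, and was not called (adjusted p = 0.085, edgeR).

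Neuropeptide precursors differed in both directions, 7 of 17 called higher and 5 lower (median log2 -0.49), or 6 higher and 7 lower with total counts only. Penk, the enkephalin precursor, was at 2.59 and 3.63 CPM in the hippocampus and at 169.7 and 199 CPM in the caudate putamen (log2 6.02, SE 0.23). Pdyn, the dynorphin precursor, which granule neurons also make, was at 1.99 and 3.31 CPM against 10.3 and 7.61 CPM (log2 1.88, SE 0.29). The interneuron peptides Sst (log2 2.69, SE 0.15), Npy (log2 1.51, SE 0.27) and Pthlh (log2 3.58, SE 0.26) were higher. Vip was lower, at 2.67 and 2.35 CPM against 0.0919 and 0.0607 CPM (log2 -4.92, SE 0.28), and Cck at 20.7 and 29.5 CPM against 1.34 and 1.42 CPM (log2 -4.04, SE 0.22). Bdnf, a neurotrophin made in hippocampal neurons and carried to the striatum along cortical axons, was at 44.8 and 49.9 CPM against 0.353 and 0.5 CPM (log2 -6.62, SE 0.21). The Scg2 call (log2 0.47) was lost without hippocampal replicate 1 or either caudate putamen library and with total counts only. That of Pnoc (log2 -2.35) was lost without either hippocampal library or caudate putamen replicate 2.

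Ionotropic glutamate receptor genes changed by subunit. Of 15 AMPA receptor genes, 8 were called higher and 4 lower in the caudate putamen (median log2 0.32), but with total counts only 5 were higher and 6 lower, and without hippocampal replicate 1 or caudate putamen replicate 2 only 5 were higher. Gria1, a pore subunit, was at 2811 and 3264 CPM in the hippocampus and at 1339 and 1129 CPM in the caudate putamen (log2 -1.16, SE 0.12), while Gria4 was at 278 and 271 CPM against 807 and 731 CPM (log2 1.62, SE 0.08). Gria2, which makes the receptor impermeable to calcium, was not called, at log2 -0.04 (SE 0.12). Auxiliary subunits differed further: Shisa6 was at 699 and 780.4 CPM against 22.2 and 20.2 CPM (log2 -4.98, SE 0.11), Cnih3 had a log2 fold change of -3.38 (SE 0.18), and Cacng8 of -1.28 (SE 0.07). Other relatives rose: Cacng4 was at 16 and 13.2 CPM against 119 and 132 CPM (log2 3.25, SE 0.14), and Gsg1l had a log2 fold change of 1.77 (SE 0.10). Of 7 NMDA receptor genes, 2 were called higher and 3 lower (median log2 -0.84), or 1 higher and 4 lower with total counts only. Thinning to 1000 counts per barcode left 0 higher and 2 lower. Grin2a was at 3388 and 3644 CPM against 803 and 779 CPM (log2 -2.01, SE 0.09), whereas Grin2b was not called, at log2 -0.18 (SE 0.09). The calls of Gria3, Shisa7, Shisa9 and Grin1, higher by 0.32 to 0.50 on the log2 scale, were each lost without 2 or more of the 4 libraries in turn and with total counts only, and the Grin2d call without either hippocampal library.

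Among kainate and delta receptor genes, 7 of 9 were called higher and 2 lower (median log2 0.61). The high-affinity kainate subunit Grik4, known from CA3, was at 272 and 330.3 CPM against 43.8 and 27.1 CPM (log2 -2.96, SE 0.24), and Grik1 had a log2 fold change of -1.83 (SE 0.17). The auxiliary subunit Neto2 was at 45.8 and 38.1 CPM against 283 and 344 CPM (log2 3.05, SE 0.16). Of 10 metabotropic receptor and scaffold genes, 5 were called higher and 3 lower. Grm2, a presynaptic receptor of granule neurons, was at 11.6 and 15.6 CPM against 0.212 and 0.131 CPM (log2 -6.21, SE 0.30), and Grm4, a presynaptic receptor of medium spiny neurons, at 11.3 and 7.72 CPM against 82.2 and 73.4 CPM (log2 3.18, SE 0.19). The Grik2 and Grm7 calls were lost without either hippocampal library and that of Grik5 without hippocampal replicate 1.

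GABA-A receptor genes were mostly lower, with 7 of 12 called lower and 3 higher (median log2 -0.40). Gabra5, a subunit of extrasynaptic receptors in the hippocampus, was at 118 and 125 CPM against 31.8 and 30.3 CPM (log2 -1.82, SE 0.07). The higher members were Gabrg3, at 419 and 381 CPM against 1613 and 1746 CPM (log2 2.21, SE 0.11), Gabrd (log2 2.02, SE 0.13) and Gabra4 (log2 0.82, SE 0.11). The lower calls were small apart from Gabra5 and Gabrb1 (log2 -0.94, SE 0.09). Their count fell from 7 to 3 without hippocampal replicate 2 and to 4 with each library's gene length trend removed, those of Gabra2 and Gabrb2 being among the calls lost under both settings.

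**Figure D3:**
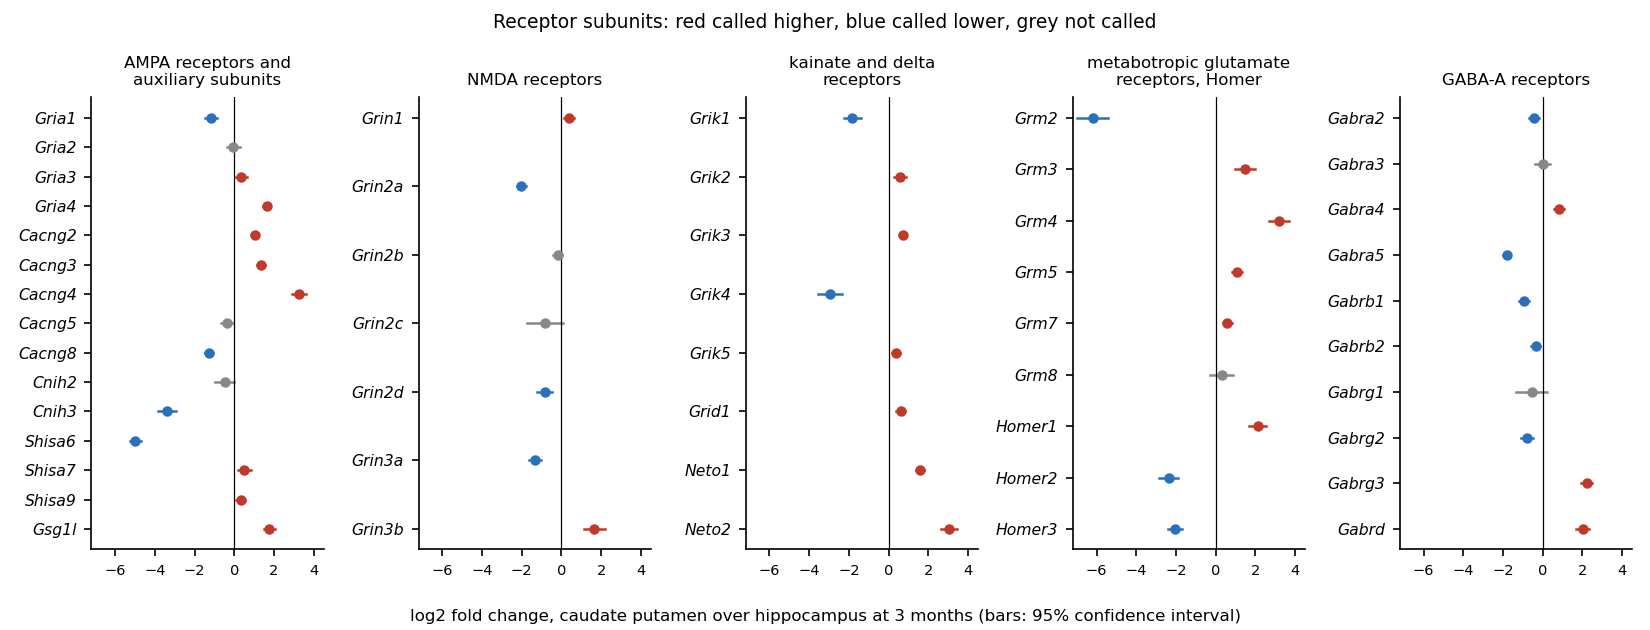
Log2 fold change of caudate putamen over hippocampus at 3 months (x axis) for the tested genes of 5 receptor lists, apart from members not reported here (1 panel each, genes on the y axis), as a point with its 95% confidence interval. Red genes were called higher and blue genes lower. Each panel holds both colours, with Shisa6 at -4.98 and Grm2 at -6.21 farthest to the left and Cacng4 at 3.25 farthest to the right.

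Of 29 receptors for modulatory transmitters, 12 were called higher and 11 lower (median log2 -0.26), or 11 higher and 14 lower with total counts only. The kappa opioid receptor gene Oprk1 was at 0.167 and 0.32 CPM in the hippocampus and at 17.3 and 15.3 CPM in the caudate putamen (log2 6.12, SE 0.29). The cannabinoid receptor gene Cnr1 was at 21.9 and 19.6 CPM against 142 and 234 CPM (log2 3.33, SE 0.29), and the muscarinic M4 receptor gene Chrm4 at 0.0702 and 0.0682 CPM against 1.05 and 1.02 CPM (log2 4.03, SE 0.27). Serotonin receptor genes went in both directions: Htr2c (log2 3.68, SE 0.19) and Htr1b (log2 3.59, SE 0.14) were higher. Htr1a was at 1.41 and 2.16 CPM against 0.0989 and 0.0981 CPM (log2 -4.04, SE 0.33), and Htr4 had a log2 fold change of -2.68 (SE 0.26). All 3 neuropeptide Y receptor genes on the list, Npy1r, Npy2r and Npy5r, were lower (log2 -2.40, -3.29 and -1.52), while their ligand Npy was higher. The tachykinin receptor gene Tacr1, whose product binds substance P, was at 2.22 and 2.24 CPM against 24.3 and 24.5 CPM (log2 3.59, SE 0.10). For the corticosteroid receptors, Nr3c2 was at 1090.3 and 1106 CPM against 288 and 275 CPM (log2 -1.82, SE 0.08), and Nr3c1 was not called (log2 -0.06, SE 0.09). The Htr6 call was lost with any 1 library left out, and those of Htr7, Oprm1 and Tacr3 without either hippocampal library.

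Potassium channel genes included some of the largest opposite differences, with 14 of 31 called higher and 12 lower (median log2 0.07). Kcnj6 (GIRK2) was at 567 and 598 CPM in the hippocampus and at 8.73 and 7.81 CPM in the caudate putamen (log2 -6.0, SE 0.10), and Kcnj3 (GIRK1) at 629 and 626 CPM against 61 and 40.2 CPM (log2 -3.50, SE 0.20). These are the subunits of the inward rectifier that G proteins open. The strong inward rectifiers Kcnj4 (log2 1.61, SE 0.10) and Kcnj2 (log2 2.28, SE 0.19), which hold medium spiny neurons at a negative resting potential, were higher. Kcnh4 was at 3.49 and 3.35 CPM against 59.3 and 64.1 CPM (log2 4.32, SE 0.11) and Kcnq5 at 593 and 431 CPM against 3221 and 3125 CPM (log2 2.77, SE 0.17). The sodium-activated channels Kcnt1 (log2 3.16, SE 0.16) and Kcnt2 (log2 -2.92, SE 0.10) had opposite signs, and Kcnq3 (log2 0.07, SE 0.09) was not called. Kcnip4, a Kv4 partner, was at 10573 and 10329 CPM against 4069 and 3730.3 CPM (log2 -1.28, SE 0.09).

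Of 23 sodium, calcium and HCN channel genes, 8 were called higher and 6 lower (median log2 -0.09), or 7 higher and 8 lower with total counts only and 5 higher and 6 lower with thinning to 1000 counts per barcode. Scn4b, the sodium channel beta subunit behind resurgent current, was at 1.01 and 1.18 CPM in the hippocampus and at 75.3 and 80.4 CPM in the caudate putamen (log2 6.28, SE 0.14). The pore subunits Scn2a (log2 0.27, SE 0.11) and Scn8a (log2 -0.27, SE 0.09) were not called. The T-type calcium channel genes took opposite directions, Cacna1g at log2 -2.28 (SE 0.15) and Cacna1i at log2 1.65 (SE 0.09). Hcn2, a pacemaker channel gene, was slightly higher (log2 0.56, SE 0.09). Among 15 calcium binding proteins and kinases, 6 were called higher and 5 lower: Camk4 was at 103 and 77.2 CPM against 1083 and 1002 CPM (log2 3.67, SE 0.16) and Camk2a at 1040.2 and 1128 CPM against 389 and 367 CPM (log2 -1.38, SE 0.09). Calb1, present in granule neurons and in medium spiny neurons alike, was at 53.5 and 78.8 CPM against 89.9 and 92.9 CPM and was not called (adjusted p = 0.065, edgeR). The calls of Kcna2, Kcnd2, Kcnh7, Kcnip3, Scn2b, Scn3a, Cacna1d and Hpcal1 were each lost without 2 or more of the 4 libraries in turn.

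Surface molecules that guide axons and organise synapses also differed. Of 17 Eph receptors and ephrins, 9 were called lower and 6 higher (median log2 -0.63). Ephb2, a receptor at hippocampal synapses, was at 69.7 and 62.7 CPM in the hippocampus and at 8.74 and 6.01 CPM in the caudate putamen (log2 -3.03, SE 0.18), and Epha3, Epha5, Epha6 and Epha7 were also lower (log2 -2.27 to -1.22). The ligands Efnb2 (log2 2.12, SE 0.11) and Efna5 (log2 1.56, SE 0.12) and the receptor Ephb1 (log2 1.76, SE 0.12) were higher. Of 9 cerebellin, C1q-like and pentraxin genes tested, 5 were called lower and 1 higher (median log2 -2.38). C1ql3, a synaptic organiser of mossy fibres, was at 153 and 212 CPM against 0.989 and 1.32 CPM (log2 -7.14, SE 0.28), C1ql2 at 10.2 and 19.7 CPM against 0.0353 and 0.0747 CPM (log2 -7.84, SE 0.54) and Nptx1 at 34.7 and 52.9 CPM against 1.59 and 1.52 CPM (log2 -4.68, SE 0.25). Its relative Nptx2 was the higher member, at 2.44 and 1.99 CPM against 7.66 and 11.6 CPM (log2 2.28, SE 0.27). Of 15 classical cadherins, 6 were called higher, Cdh7 by the most (log2 2.66, SE 0.13), and 4 lower, Cdh24 by the most (log2 -2.13, SE 0.13). The Efna1 call was lost without either hippocampal library or caudate putamen replicate 2, and the Cdh4, Cdh12 and Cdh13 calls without either hippocampal library.

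Markers of hippocampal neuron types differed by list. Of 12 dentate granule markers, 10 were called lower (median log2 -3.46). Dsp (desmoplakin) was at 28.5 and 38.8 CPM against 0.247 and 0.271 CPM (log2 -6.87, SE 0.24), and Il16 at 38.5 and 44.5 CPM against 0.565 and 0.85 CPM (log2 -5.70, SE 0.25). Of 6 CA3 markers, 5 were lower, with Iyd at 3.18 and 2.85 CPM against 0.0424 and 0.042 CPM (log2 -5.99, SE 0.25). The other, Trps1, was called higher (log2 0.44, SE 0.12), a call lost with total counts only. CA1 markers were less uniform, 3 of 6 lower and 2 higher: Pou3f1 (log2 1.35, SE 0.11) and Man1a (log2 1.28, SE 0.12) were at larger levels in the caudate putamen. Of the Cajal-Retzius markers, Lhx1, Lhx5 and Ndnf were lower, but Reln, which encodes the secreted protein reelin, was at 57 and 61.1 CPM against 510.4 and 677 CPM (log2 3.48, SE 0.19). Of 4 mossy cell markers, Calb2 and Csf2rb2 were lower and Drd2 higher, and of 6 markers of neuroblasts and immature neurons, Sox11 and Eomes were lower and 4 were not called, with no call left without hippocampal replicate 2. Thalamic markers, from tissue that lies beneath the hippocampus, summed to 159 and 114 CPM against 54.3 and 29.6 CPM, and 4 of 5 were called lower, but 1 of 5 without either hippocampal library. Among cortical projection neuron markers, Fezf2 and Tbr1 were lower and Tle4 and Rspo1 higher, and 4 were lower without caudate putamen replicate 1.

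Of 11 markers of GABA interneurons, 5 were called higher and 3 lower in the caudate putamen (median log2 0.63). The higher members were Sst, Npy and Pthlh, whose values are given with the neuropeptides, Lamp5 (log2 1.76, SE 0.20) and Lhx6 (log2 1.47, SE 0.20). Nos1, the nitric oxide synthase gene of interneurons that also make somatostatin and neuropeptide Y, was lower, at 22.6 and 28.4 CPM in the hippocampus against 11.8 and 12 CPM (log2 -0.96, SE 0.14). Adarb2, a marker of interneurons from the caudal ganglionic eminence, was at 1737 and 1764 CPM in the hippocampus and at 229.8 and 183 CPM in the caudate putamen (log2 -2.95, SE 0.12), and Vip was lower too. Pvalb was at 0.948 and 1.04 CPM against 1.99 and 0.855 CPM, with overlapping regions and no call. All 5 markers of cholinergic neurons, the large interneurons of the striatum, were called higher: Chat, choline acetyltransferase, was at 0.079 and 0.0554 CPM against 8.33 and 8.26 CPM (log2 7.14, SE 0.22), and Lhx8 at 0.0176 and 0.0085 CPM against 2.42 and 2.14 CPM. The call of Slc18a3, at 0.0176 and 0.0085 CPM against 0.0919 and 0.112 CPM, was lost without hippocampal replicate 2. Of 14 genes of neurons in general, 4 were called higher and 2 lower (median log2 -0.07), or 4 higher and 5 lower with total counts only, beside 37.9% of all genes called in either direction. The 5 flattest, chosen by that rule, were Nefm (log2 0.02), Rbfox3 (-0.06), Map2 (-0.09), Snap25 (0.10) and Syt1 (-0.17), none called. With total counts only, Nefm and Snap25 fell below 0, at -0.12 and -0.04, and Syt1 was called lower. Among the called members, Syp (synaptophysin) was at 77.3 and 87.9 CPM against 28.2 and 24.9 CPM (log2 -1.50, SE 0.10), and Tubb3 at 22.5 and 21.3 CPM against 49 and 54.8 CPM (log2 1.39, SE 0.11).

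Glial genes divided by cell type. Of 12 oligodendrocyte markers, 11 were called higher in the caudate putamen (median log2 0.86). Mbp, which encodes myelin basic protein, was at 196 and 172 CPM against 262 and 230.3 CPM (log2 0.56, SE 0.09). St18 was not called, at log2 0.04 (SE 0.09), and the Mbp call was lost without hippocampal replicate 2, that of Cnp also without caudate putamen replicate 2 and with total counts only. Of 7 precursor markers, Vcan and Olig1 were called higher and neither without a hippocampal library. Pdgfra, which defines precursors, was at 11.7 and 7.62 CPM against 7.59 and 9.44 CPM.

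Astrocyte markers were lower in the caudate putamen, 7 of 10 called (median log2 -1.44), and summed to 1483 and 929.6 CPM in the hippocampus against 548 and 304 CPM. Gfap, the intermediate filament gene that hippocampal astrocytes express more, was at 15.1 and 8.39 CPM against 1.48 and 0.177 CPM (log2 -3.76, SE 0.93), and Slc1a2, the glutamate transporter GLT-1, at 1051 and 638 CPM against 381 and 208 CPM (log2 -1.39, SE 0.35). The summed level in replicate 2 was below that in replicate 1 in both regions. The 7 calls became 1 without hippocampal replicate 1, 1 without hippocampal replicate 2, 4 without caudate putamen replicate 2 and 9 without caudate putamen replicate 1.

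Microglial and vascular genes depended on single libraries. The 8 microglial markers summed to 135 and 128 CPM in the hippocampus and to 102 and 148 CPM in the caudate putamen. P2ry12 was called lower, at 66.8 and 69.6 CPM against 43 and 50 CPM (log2 -0.41, SE 0.12), a call lost without either hippocampal library or caudate putamen replicate 1. All 8 markers were higher in caudate putamen replicate 2 than in replicate 1, among them Siglech at 6.22 and 12.7 CPM, and 7 of 8 were called higher when replicate 1 was left out. None of 6 endothelial markers was called by edgeR (0 at an unadjusted p under 0.05, and 1 called by DESeq2), although they summed to 104 and 57.9 CPM against 50.6 and 21 CPM, and 5 were called lower without caudate putamen replicate 1. With the replicate block, whose numbers are not shown to mark shared mice, edgeR called 5 of the 6 endothelial markers lower. Of 7 choroid plexus markers only Clic6 was called by edgeR (3 were called higher by DESeq2 and 2 with the replicate block), at 0.255 and 0.2 CPM against 26.9 and 18.6 CPM, while Folr1, Otx2, Prlr and Kl were, like Ttr, higher in caudate putamen replicate 1 than in replicate 2, as in Kl at 4.73 and 0.589 CPM. Without replicate 1, 4 of the 7 were called lower than in the hippocampus, and without replicate 2, 4 were called higher. Ependymal genes were also higher in that library, with Dynlrb2 at 0.848 and 0.168 CPM, and of 4 tested none was called by edgeR (2 at an unadjusted p under 0.05, and 2 called by DESeq2), but 3 were called higher without replicate 2.

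Activity-induced genes were higher in the caudate putamen, 11 of 15 called higher and 2 lower (median log2 2.12). Egr1 was at 10 and 10.8 CPM in the hippocampus and at 54.2 and 69.1 CPM in the caudate putamen (log2 2.71, SE 0.17), Junb at 10.5 and 12.4 CPM against 47.7 and 61.9 CPM (log2 2.40, SE 0.19) and Npas4 at 3.74 and 4.45 CPM against 22.6 and 39.6 CPM (log2 3.07, SE 0.33). These encode transcription factors made within minutes of neuronal firing. In the caudate putamen replicate 2 lay above replicate 1 for 14 of the 15 genes, all but Ier2, with Fos at 4.61 and 9.43 CPM there against 1.98 and 1.67 CPM in the hippocampus. Nr4a2 was lower, at 14.3 and 13.2 CPM against 0.254 and 0.542 CPM (log2 -4.92, SE 0.38); besides its induction by activity it marks some pallial neurons. The 11 calls became 5 without hippocampal replicate 1 and 6 without hippocampal replicate 2, with Fos, Arc, Egr2, Egr3 and Nr4a1 lost in both cases. How long the tissues waited before lysis is not given in the sources used here, and its part in these values was not tested.

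Long RNAs kept in the nucleus were for the most part higher, 5 of 7 called. Meg3 was at 3038 and 2971 CPM against 4221 and 4048 CPM (log2 0.60, SE 0.09), a call lost without either hippocampal library, and its neighbours in the imprinted cluster, Rian (log2 1.06, SE 0.08) and Mirg (log2 1.26, SE 0.07), were higher too. Miat went the other way, at 156 and 197 CPM against 17.4 and 10.1 CPM (log2 -3.56, SE 0.28). Malat1 was not called (log2 0.31, SE 0.13). Of 13 mitochondrially encoded genes only mt-Co1 was called, lower, at 9.85 and 8.44 CPM against 4.86 and 4.44 CPM.

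**Figure D4:**
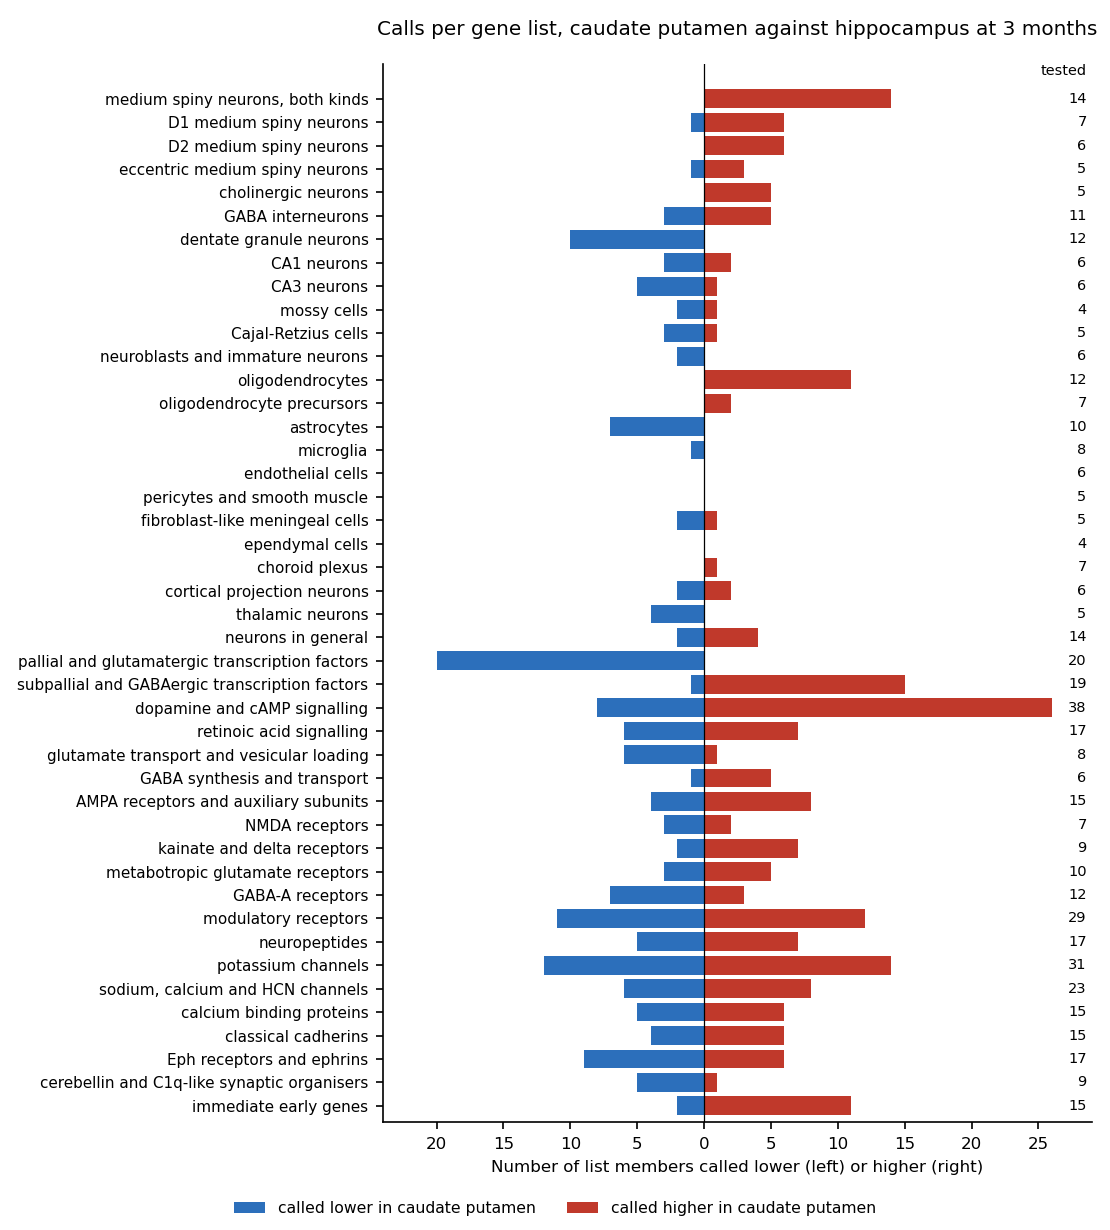
Number of members of each gene list called higher (red, to the right) or lower (blue, to the left) in the caudate putamen, with the number of members tested at the right edge; lists of nuclear, mitochondrial and sex-linked genes are left out. All 20 pallial factors point left, and 26 of 38 dopamine and cAMP genes and all 14 shared medium spiny neuron markers point right.

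The same difference was measured in the 4 libraries at 21 months, which the 3-month comparison did not use. Of the 8570 genes called at 3 months, 8542 had a value at 21 months, 8443 (98.8%) of them in the same direction, against 84.6% of all 22476 genes tested at both ages. For 7130 (83.5%) the difference was called in the same direction, against 40.2% of all (40.7% of all were called at 21 months in either direction). The 21-month folds and calls came from a fit of all 8 libraries, whose gene filter and estimate of spread also used the 3-month libraries. That fit called 10006 genes at 3 months, so its calls are not on a par with the 8570. Both old libraries of one region lay above both of the other, in the same direction, for 8035 (94.1%), against 66.6% of all. Across 22476 genes the log2 fold changes at the 2 ages had a Pearson correlation of 0.928 and a Spearman correlation of 0.872, given as a description because genes are not independent. Large differences had like values at both ages: Drd2 was at 7.54 and 7.01, Rarb at 6.34 and 5.94, Tac1 at 6.86 and 6.88, Penk at 6.02 and 6.03, Tafa1 at -6.89 and -6.94 and Shisa6 at -4.98 and -4.89 on the log2 scale. C1ql3 was at -7.14 and -5.66 and Slc17a7 at -7.53 and -5.29, with no call for the difference between ages.

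A test of whether the region difference itself changed with age called 2 of 22831 genes (0.00876%), Atxn2l and Snrpf, with 1546 genes at an unadjusted p under 0.05. DESeq2 called 117. Snrpf lies under the level limit of the rule for named genes and was chosen after its values were seen. Atxn2l, which encodes a stress granule protein, was at 39.0 and 39.0 CPM in the young hippocampus and at 57.2 and 51.3 CPM in the young caudate putamen, and at 40.4 and 39.6 CPM and 25.9 and 23.1 CPM at 21 months. Snrpf, a core protein of spliceosomal particles, was at 10.2 and 8.32 CPM against 16.4 and 14.6 CPM at 3 months and at 10.2 and 9.84 CPM against 4.51 and 4.2 CPM at 21 months. In both genes the hippocampus held its level and the caudate putamen libraries lay above it at 3 months and below it at 21 months. The adjusted p of both was 0.0495 (edgeR quasi-likelihood test), and both calls were lost without any 1 of the 8 libraries, with adjusted p from 0.0924 for Atxn2l without caudate putamen replicate 2 of 3 months to 0.449 for Atxn2l without hippocampal replicate 1 of 3 months.

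**Figure D5:**
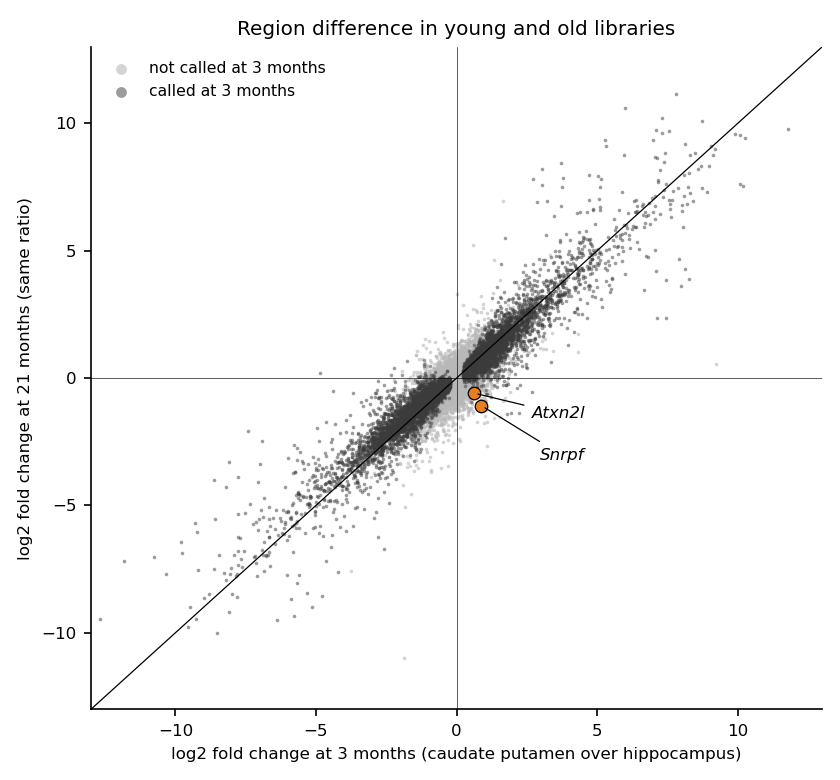
Log2 fold change of caudate putamen over hippocampus for each gene at 3 months (x axis) and at 21 months (y axis), with a line of equal values; dark points were called at 3 months and pale points were not. Most dark points lie along the line, at upper right or lower left, and Atxn2l and Snrpf (orange) lie below 0 at 21 months but above 0 at 3 months.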

How the data were processed

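Per the file headers, the authors deposited whole-number counts of RNA molecules per gene and barcode, made with Cell Ranger 6.1.2 for 7 libraries and 7.0.0 for caudate putamen replicate 2 of 3 months. The submitters' processing notes name Cell Ranger 4.0.0 and the build mm10; the annotation and the handling of introns are not given in the sources used here. Gene identifiers were matched to GENCODE vM21 for GRCm38 (32235 of 32285). Barcodes with at least 500 genes were kept, no doublet caller was run, and counts were summed per library. Genes passing filterByExpr were tested with edgeR 4.0.16 (TMM, robust quasi-likelihood test, Benjamini-Hochberg adjustment, R 4.3.3), 2 libraries against 2, or all 8 with a region by age term. A script of these steps was tested on simulated data. An SE is the absolute log2 fold change, or change with age, over the square root of the test's F statistic. The 95% confidence intervals were built from this SE, so both are approximate. The comparison and the gene lists were chosen with earlier results of these data known. Named genes were the 12 with the largest fold in each direction among called genes of at least 50 CPM in the higher region whose library values did not overlap between regions; in each list the called members farthest from 0, the member at the highest mean CPM and others needed to describe the list; and the 5 flattest general neuron genes. Some genes among those the rule gives, and some list members, are not reported here. Alternatives were DESeq2 1.42.0, other size factors, other barcode limits and thinning to 1000 counts per barcode. The 5% of barcodes with most counts were also left out, and each library's smoothed gene length trend was removed. Further alternatives were a replicate block, all 8 libraries in 1 fit and each library left out.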

Additional observations from a re-analysis of the deposited data

Results flagged for a closer look

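The test of the region difference at 21 against 3 months picked out Atxn2l and Snrpf, in which the sign of the difference turned with age. For Atxn2l the log2 fold change of caudate putamen over hippocampus was 0.62 at 3 months and -0.59 at 21 months, a change of -1.21 (SE 0.09). For Snrpf it was 0.89 at 3 months and -1.08 at 21 months, a change of -1.97 (SE 0.16). Both changes had an adjusted p of 0.0495 with edgeR. Over the 13 other settings run, the adjusted p ranged from 1.46e-20 to 0.449 for Atxn2l and from 3.86e-20 to 0.437 for Snrpf, the lowest values being those of DESeq2, while the change itself stayed between -1.27 and -1.16 for Atxn2l and between -2.11 and -1.83 for Snrpf. The hippocampal libraries lay between 39.0 and 40.4 CPM for Atxn2l and between 8.32 and 10.2 CPM for Snrpf at both ages.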

How the results depend on the processing

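Over the 16 alternatives to the 3-month comparison, the 8570 calls became 8130 to 10006 except under thinning to 1000 counts per barcode, which gave 4222 calls among 17421 genes tested, and with 1 library left out, which gave 5330 to 7655. With 1 library left in a region, that library is assumed to vary like those of the other region. Leaving out the barcodes that libraries share, an alternative added after seeing the data, gave 8535 calls. Of 366 called genes, taking list members together with the 24 genes of largest fold, 273 kept their call under every alternative. Those 24, chosen for large folds without overlap between regions, were all among the 273. Most losses came without hippocampal replicate 1 (64 genes), without hippocampal replicate 2 (65) and with thinning (49), and 13 came with total counts only. Efna1, at -1.04, reversed to 0.0654 on the log2 scale with thinning; the cause was not tested. The difference with age gave 117 calls with DESeq2, 0 with total counts only and 0 to 1 with 1 library left out; the cause was not tested.

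The replicate numbers do not show shared animals: with only 2 pairs, same-numbered libraries had a correlation of deviations of 0.117 across genes. With the replicate block the 3-month comparison gave 8865 calls, no list gene lost its call, and the difference with age gave 5 calls. The block added lower calls for endothelial markers (5 in place of 0 of 6), fibroblast-like meningeal markers (4 in place of 2), cortical markers (4 in place of 2) and astrocyte markers (9 in place of 7). The summed levels of endothelial and astrocyte markers were lower in replicate 2 than in replicate 1 in both regions.

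With promoters read only over the 250 bases before the start, fewer held each motif, since the window is shorter. TGACGTCA was in 2.52% of all. TGACG was in 25.8% of all, 20.4% of the higher and 19.4% of the lower genes, GGGCGG in 52.4%, 43.6% and 45.1%, CAGATG in 13.9%, 15.3% and 16.5%, and CAGCTG in 15.2%, 18.6% and 18.0%. TATAAA was in 9.93% of all and 13.9% of the higher genes.

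Depth limited the low genes: the median 95% confidence interval reached 0.96 to either side of the log2 fold change for the 5656 genes with the lowest mean CPM and 0.216 for the 5656 with the highest, of which 27.5% and 50.5% were called.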

Other observations

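Long intergenic RNAs made up more of the large differences than of the genes tested. They were 11.2% of the 22623 genes tested, 21.1% of those called at least 2-fold higher and 15.8% of those called at least 2-fold lower in the caudate putamen, while protein-coding genes were 73.9%, 62.4% and 65.1%. The median of mean CPM was 5.2 over all genes tested, 3.00 over the higher and 2.08 over the lower set, so the sets also differ in level. Among all genes called, with no fold limit, long intergenic RNAs were 12.8% of the higher and 11.3% of the lower. No test was made of these shares.

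Antisense RNAs lay over several of the genes with the largest fold and had the sign of their partner. Gm30177, over Nrn1, was at 0.983 and 1.03 CPM in the hippocampus and at 0 and 0.0047 CPM in the caudate putamen, and 4930474M22Rik, over Smoc2, at 6.74 and 9.33 CPM against 0.0071 and 0.042 CPM. Not every overlapping gene was called: Fars2, which overlaps Nrn1, had a log2 fold change of 0.05 (SE 0.07) and Top2b, which overlaps Rarb, of 0.08 (SE 0.07).

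The genes next in rank after the first 12 in each direction were Scn4b, Syt6, Penk, 1700003D09Rik and Ppp1r1b on the higher side and Syt17, Sphkap, Sidt1, Rras2 and Shisa6 on the lower side, listed after their values were seen. Synaptotagmin genes thus stood on both sides: Syt6 was at 2.49 and 3.05 CPM in the hippocampus and at 173 and 209 CPM in the caudate putamen (log2 6.24, SE 0.20), and Syt17 at 104 and 119 CPM against 3.40 and 2.00 CPM (log2 -5.25, SE 0.26). Sphkap, which anchors protein kinase A, was at 631 and 714 CPM against 20.4 and 12.8 CPM (log2 -5.21, SE 0.25).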
